A study of Mus musculus with 2 samples.

Results

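Chromatin accessibility was examined at the genes for 9 apolipoproteins (Apoa1, Apoa2, Apoa4, Apoa5, Apoc3, Apoe, Apoc1, Apob and Apoh) and for the lipid transfer protein that loads lipid onto apolipoprotein B (Mttp). All 10 genes had at least 1 accessible region whose closest transcription start site (TSS) was theirs, 47 regions of the 69549 in all. Of these, 15 were promoter regions, with the centre within 1 kb of the TSS, and 32 lay farther out. ATAC-seq, in which the Tn5 transposase cuts open chromatin and adds sequencing adaptors to it, was performed on whole liver in 2 groups of C57BL/6 background mice, 8 weeks old and fed normal chow. Mettl3 flox/flox mice carry Mettl3, the gene of an RNA adenosine methyltransferase, with exons 2 and 3 flanked by loxP sites, and their label names no Cre. Mettl3-HKO mice carry the same floxed alleles and 1 copy of Alb-Cre (Mettl3 flox/flox Alb-Cre+/-), in which the albumin promoter drives Cre in hepatocytes, so that other liver cells keep the gene. Livers of 4 mice were pooled into 1 library per group, the flox/flox library and the HKO library. No spread between mice was therefore measured, no test was made, and every interval given covers counting error only.

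Apolipoproteins are the proteins of the lipid particles that carry triglyceride and cholesterol in plasma, and hepatocytes are a main source of most of them. Apolipoprotein B is the structural protein of very low density lipoprotein (VLDL), and the microsomal triglyceride transfer protein encoded by Mttp lipidates it in the endoplasmic reticulum. The smaller apolipoproteins exchange between particles and act on lipases, on lipid transfer and on uptake by receptors, while apolipoprotein A-I is the main protein of high density lipoprotein (HDL). Several of these genes lie in clusters, Apoa1, Apoc3, Apoa4 and Apoa5 next to Sik3 on mouse chromosome 9, and Apoe and Apoc1 with Apoc4 and Apoc2 on chromosome 7.

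The deposited values scale 1 read to 0.01893 (Mettl3 flox/flox) and 0.01723 (Mettl3-HKO) reads per 1000000 (RPM), which implies totals of about 52800000 and 58000000 reads, and 31.7% and 22.3% of these fell in the regions. On the scale of these totals the median log2 ratio (Mettl3-HKO over Mettl3 flox/flox) was -0.38 over all regions and -0.56 over the 14387 promoter regions, so a ratio below 0 was the common case. Centred ratios are relative to that median of all regions, a shift of -0.38. Scaling to the reads in regions shifts the zero to -0.51 and centring on the strongest 10% of promoter regions to -0.65, and a ratio said to keep its sign under every scaling kept it under all of these. Hepatocyte markers checked the tissue: all 8 had a promoter region, at 104 RPM in sum in the flox/flox library and 72.2 RPM in the HKO library. The Mettl3 promoter region, which lies outside the floxed exons and does not check the deletion, had 566 and 392 reads (log2 ratio -0.66, 95% interval -0.86 to -0.48). In bulk liver, fewer cells of a type and less open chromatin per cell cannot be told apart.

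The sequences just upstream of the start sites are shown first, since the regions at the start sites ran from Apoe, with the highest ratio, to Apoh, with the lowest. RefSeq promoter sequences (GRCm38.p6) were held for 8 of the 10 genes, not for Apoc1 and Apoc3, and 7 genes had one that overlapped a promoter region. The 200 bases ending before the TSS used here, or before a RefSeq start close to it where that lies upstream, are printed for 6 genes in order of their ratio, from the highest to the lowest, in lower case and in the direction of transcription, with capitals for matches on either strand to a forkhead motif of the FOXA type (letters TGTTTNC), to a core promoter box (letters TATAAA) or to a motif of C/EBP factors (letters TTGCNNAA). RefSeq also annotates Apoa2 and Apoe farther upstream than these stretches, Apoa2 from a start 3490 bp away.
Apoe (chr7:19699189-19699388, minus strand): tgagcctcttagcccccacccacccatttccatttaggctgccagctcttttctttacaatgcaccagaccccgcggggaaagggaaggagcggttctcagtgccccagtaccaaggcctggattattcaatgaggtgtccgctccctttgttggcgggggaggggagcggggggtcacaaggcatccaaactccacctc
Apoa5 (chr9:46268408-46268607, plus strand): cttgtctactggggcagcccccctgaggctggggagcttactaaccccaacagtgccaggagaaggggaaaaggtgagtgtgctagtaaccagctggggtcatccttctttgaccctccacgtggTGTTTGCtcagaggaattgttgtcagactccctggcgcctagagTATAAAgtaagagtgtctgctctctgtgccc
Apoa1 (chr9:46228380-46228579, plus strand): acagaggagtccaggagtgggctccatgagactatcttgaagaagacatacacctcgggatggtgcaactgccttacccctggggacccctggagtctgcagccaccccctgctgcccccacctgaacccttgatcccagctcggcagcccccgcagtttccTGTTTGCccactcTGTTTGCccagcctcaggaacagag
Apob (chr12:7977429-7977628, plus strand): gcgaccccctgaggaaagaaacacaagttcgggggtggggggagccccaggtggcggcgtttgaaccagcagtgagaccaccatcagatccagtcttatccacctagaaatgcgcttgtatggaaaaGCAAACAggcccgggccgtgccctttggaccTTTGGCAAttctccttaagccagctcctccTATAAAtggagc
Apoa2 (chr1:171224854-171225053, plus strand): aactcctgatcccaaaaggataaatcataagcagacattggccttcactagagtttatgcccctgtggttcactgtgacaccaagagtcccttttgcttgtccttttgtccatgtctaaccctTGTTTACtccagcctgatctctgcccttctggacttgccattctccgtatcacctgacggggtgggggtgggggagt
Apoh (chr11:108395093-108395292, plus strand): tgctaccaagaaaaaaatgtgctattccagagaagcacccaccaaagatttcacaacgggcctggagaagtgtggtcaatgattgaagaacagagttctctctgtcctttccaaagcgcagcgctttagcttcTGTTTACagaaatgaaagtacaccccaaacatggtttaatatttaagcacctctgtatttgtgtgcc
The Apoe stretch held none of the 3 motifs, and neither did the window of Apoa4 (log2 ratio -0.44), which is not printed and held no match to any motif searched. Apoa5, Apoa1, Apob, Apoa2 and Apoh each held a FOXA-type match, Apoa1 held a pair of them, Apoa5 and Apob held TATAAA, and Apob also held a C/EBP match. A further RefSeq start of Apoe, 790 bp downstream, has a window that overlaps the lowest promoter region, and it held 1 FOXA-type match. Over the full windows (250 bases before to 50 after the RefSeq start nearest the TSS used here), TGTTTNC was found in 5 of the 7 members against 20.5% of 32851 mouse promoters, TATAAA in 3 against 13.6%, and TTGCNNAA in 1 against 10.8%. The other motifs, searched in the same way, gave AGGTCA (bound by nuclear receptors) in 1 against 16.3%, CCAAT in 1 against 37.4%, GGGCGG (GC box) in 0 against 35.7%, CAAAGTCCA (HNF4 core) in 0 against 0.475% and GTTAATNAT (HNF1) in 0 against 0.801%. The 7 member windows had a median of 4 CpG dinucleotides (range 1 to 10) against 7 over all promoters, at a median GC content of 56.7% against 52.7%. A match of letters is a description and not a bound site.

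At the promoters, 14 of the 15 member regions were less accessible in the HKO library on the scale of the totals and 1, at the Apoe TSS, was more accessible, each with an interval that left out 0. The median log2 ratio was -0.70 (range -1.07 to 0.29), beside -0.56 over all promoter regions, where 83.9% were below 0. Centred on the median of all regions, the member median was -0.32 and 13 of 15 stayed below 0, with Apoa5 above, beside 66.4% of all promoter regions. Scaled to the reads in regions, 11 stayed below 0, and scaled to the strongest promoters 9 did, the member median then being -0.18 and -0.05. The share of all promoter regions below 0 was not computed for those scalings, so these counts have no background beside them. At least 2-fold lower were 2 of 15, Apoh and the downstream Apoe region, against 16.3% of all promoter regions, and none was at least 2-fold higher, against 4.07%. Centred, 0 of 15 passed either limit, against 5.00% (lower) and 6.90% (higher). The shares past 2-fold were thus near or below the background. Against the 1000 promoter regions nearest to each in signal, 6 of the 15 members lay above the median ratio.

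**Figure D1:**
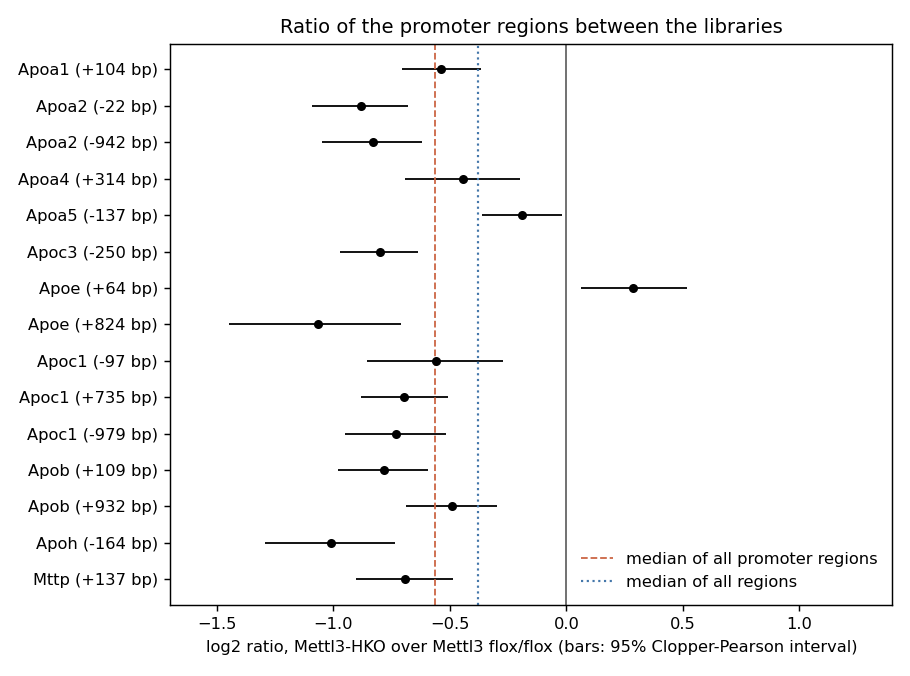
Log2 ratio (x axis, Mettl3-HKO over Mettl3 flox/flox, reads scaled to the library totals) of the 15 promoter regions, named by gene and distance of the region centre from the TSS, with 95% Clopper-Pearson intervals as bars. The region at the Apoe TSS is the only one right of 0, at 0.29. The Apoe region 824 bp downstream, a peak in the flox/flox library only, is the lowest, at -1.07. Apoa5 lies right of the dotted median of all regions (-0.38) and changes sign when centred on it.

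The levels of the promoter regions, in RPM per kb of region, ran from 6.55 at Apoa4 to 28.6 at Apoa1 in the flox/flox library and from 3.70 at Apoh to 19.7 at Apoa1 in the HKO library. Apoa1 was thus the most accessible of the 15 in both libraries. Next in the flox/flox library came the Apoa2 region at the TSS (21.4), the Apob region in intron 2 (20.4) and Apoc3 (20.2). Next in the HKO library came Apoa5 (15.1), Apoe at the TSS (14.8) and the Apob region in intron 2 (14.5). Neighbours in this order were mostly not set apart, since 12 of the 14 pairs of neighbours in it had overlapping Poisson intervals in the first library and 13 of 14 in the second. Apoe at the TSS stood at 12.1 in the flox/flox library, below 10 of the other 14 regions, and at 14.8 in the HKO library, below Apoa1 and Apoa5 only.

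**Figure D2:**
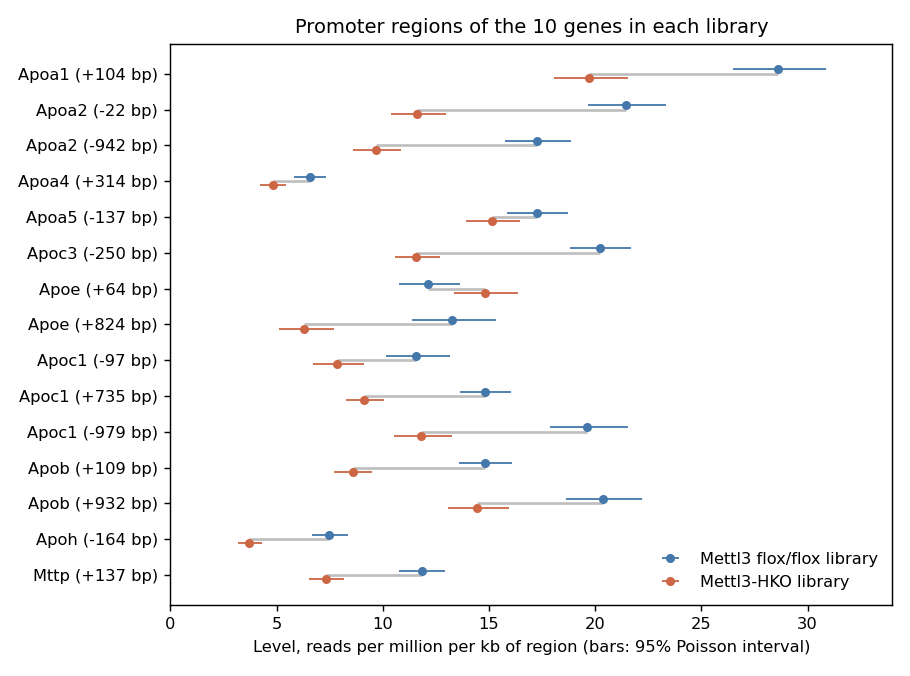
Level of each promoter region (x axis, RPM per kb of region, linear from 0) in the Mettl3 flox/flox (blue) and Mettl3-HKO (orange) libraries, with exact 95% Poisson intervals. Apoa1 is the highest in both (28.6 and 19.7), and Apoe at the TSS is the only region with the orange point on the right (12.1 and 14.8).

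Among the apolipoproteins of HDL, Apoa1, which encodes its main protein and an activator of lecithin-cholesterol acyltransferase, had 667 reads in the flox/flox library and 505 in the HKO library over chr9:46228465-46228905, centred 104 bp downstream of the TSS in the 5′ UTR. Its log2 ratio was -0.54 (95% interval -0.71 to -0.37), close to the median promoter, and above 0 only when scaled to the strongest promoters. Apoa2, which encodes the second most abundant HDL protein, had a region at the TSS (chr1:171224798-171225266) with 531 and 316 reads and a log2 ratio of -0.88 (-1.09 to -0.68). A separate Apoa2 region 942 bp upstream (chr1:171223849-171224375) had 480 and 296 reads and nearly the same ratio, -0.83 (-1.05 to -0.62). Both Apoa2 regions stayed below 0 under every scaling. Nr1i3, the neighbouring gene that encodes the nuclear receptor CAR, had 333 and 107 promoter reads and a lower ratio still, -1.76 (-2.10 to -1.46).

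Apoa4, whose product travels on chylomicrons and HDL, had the weakest promoter region in the flox/flox library per kb, with 305 and 246 reads over chr9:46240571-46241451. Its log2 ratio was -0.44 (-0.69 to -0.20), -0.07 when centred, and above 0 when scaled to the reads in regions or to the strongest promoters.

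Among the apolipoproteins that act on lipoprotein lipase, Apoc3 and Apoa5 differed. Apolipoprotein C-III slows the lipolysis and clearance of triglyceride-rich particles, and its gene's promoter region (chr9:46235157-46235864, 250 bp upstream) had 756 and 476 reads, a log2 ratio of -0.80 (-0.97 to -0.64). Apolipoprotein A-V enhances lipolysis, and its gene's promoter region (chr9:46268181-46268812, 137 bp upstream) had 576 and 555 reads, a log2 ratio of -0.19 (-0.36 to -0.019). The intervals do not overlap, so the Apoc3 region stood lower against Apoa5 in the HKO library than in the flox/flox library whatever the scaling. Apoa5 was above 0 under each of the other 3 scalings and stood at the 77.8 percentile of promoter ratios, Apoc3 at the 28.6 percentile.

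Apoe and Apoc1 are neighbours on the minus strand of chromosome 7. Apolipoprotein E is the ligand by which remnant particles bind their receptors on hepatocytes, and apolipoprotein C-I is a small exchangeable protein that hinders that uptake. The region at the Apoe TSS (chr7:19698904-19699345, centred 64 bp downstream in the 5′ UTR) had 283 reads in the flox/flox library and 380 in the HKO library. Its log2 ratio was 0.29 (0.064 to 0.52), 0.67 when centred, above 0 under every scaling and at the 89.2 percentile of promoter ratios. The next Apoe region, in intron 1 and centred 824 bp downstream (chr7:19698235-19698494), had 182 and 95 reads and was called as a peak in the flox/flox library only. Its log2 ratio was -1.07 (-1.45 to -0.71), at the 13.2 percentile and below 0 under every scaling. The gene thus held both the highest and the lowest of the 15 promoter ratios. The lowest is listed through the flox/flox library only, which ties its direction to the listing. Among the promoter regions called in both libraries, the lowest was Apoh, at -1.01. With both regions summed, Apoe had 465 and 475 reads, a ratio of -0.11 (-0.29 to 0.083) that hid the difference.

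Upstream of Apoe, past the 1 kb limit, a region centred 1310 bp away (chr7:19700366-19700632) had 173 and 103 reads and was also a peak in the flox/flox library only, at -0.88 (-1.25 to -0.52). A second one 1938 bp upstream had 488 and 448 reads, at -0.26 (-0.45 to -0.071), or 0.12 when centred. On the scale of the totals, the higher accessibility was therefore found at 1 of the 4 Apoe regions. The region 1938 bp upstream was also above 0 under each of the other 3 scalings. Those 824 bp downstream and 1310 bp upstream are listed through the flox/flox library only, which ties their direction to the listing. The Apoc1 promoter regions were alike, -0.56 (-0.86 to -0.27) at 97 bp upstream with 230 and 171 reads (above 0 only when scaled to the strongest promoters), -0.70 (-0.88 to -0.51) at 735 bp downstream over exon 2 with 587 and 398 reads, and -0.73 (-0.95 to -0.52) at 979 bp upstream with 446 and 295 reads. The Apoc1 region 1847 bp upstream, a peak in the flox/flox library only, had 236 and 152 reads, at -0.77 (-1.07 to -0.47). Of the neighbours, Apoc4 stood at -0.69 (-0.88 to -0.50) from 563 and 384 reads, and Tomm40, the next gene past Apoe, stood at 0.053 (-0.067 to 0.17) from 1067 and 1216 reads.

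Macrophages also express Apoe. Macrophage markers had a promoter region for 2 of 8 genes, C1qa with 8 and 40 reads and Cd14 with 45 and 72, in sum 53 reads against 112. Both regions were peaks in the HKO library only and so are listed through the library where they are high, which ties the direction of that sum to the listing. The defining markers Clec4f, Csf1r, Adgre1, Marco, Timd4 and Vsig4 had no promoter region. Their regions elsewhere went both ways, with log2 ratios of 1.07 at 1 region of Clec4f and medians over 2 regions each of 0.36 at Csf1r, -0.63 at Adgre1 and -2.03 at Marco, and Timd4 and Vsig4 had none. Endothelial markers had a promoter region for 7 of 8, and 5 of these were likewise peaks in the HKO library only, so that their median of 1.60 says nothing of the direction. Of the other two, Clec4g, a peak in both libraries, had 48 and 79 reads (0.57, 0.048 to 1.13), and Eng, a peak in the flox/flox library only, had 23 and 28 (0.14, -0.70 to 1.01). Stellate markers had a promoter region for 3 of 8, and those went apart. Reln had 690 and 132 reads (-2.51, -2.80 to -2.25) and Col1a1 had 37 and 43 (0.076, -0.59 to 0.76), both peaks in both libraries. Col1a2, with 31 and 16 reads, was a peak in the flox/flox library only, which ties its direction to the listing. Cholangiocyte markers (5 of 8) had a median of -0.19, or 0.19 when centred, and the highest of them, Spp1 with 13 and 34 reads, was a peak in the HKO library only. The part of such cells in the Apoe ratio was not tested.

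**Figure D3:**
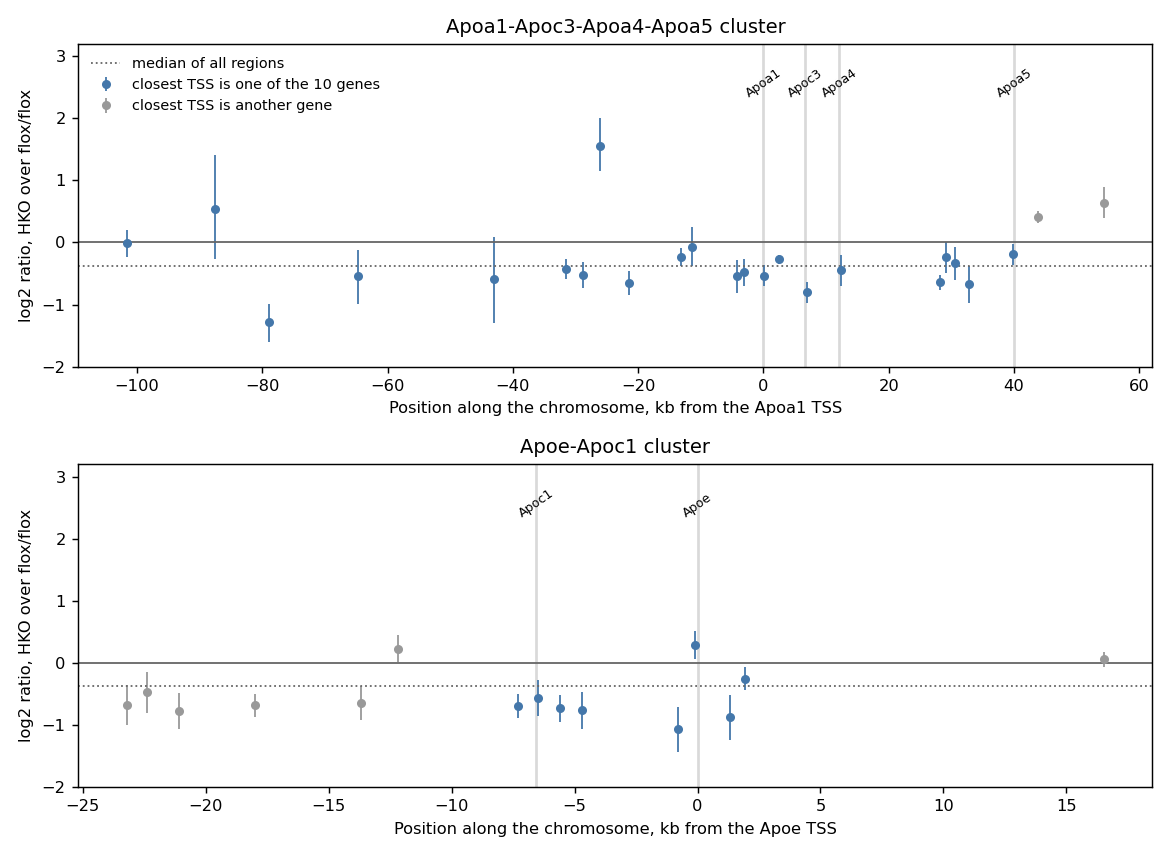
Log2 ratio (y axis, Mettl3-HKO over Mettl3 flox/flox) of every region of the clusters against its place along the chromosome in kb from the Apoa1 TSS (top) or the Apoe TSS (bottom), with 95% Clopper-Pearson intervals; blue regions have one of the 10 genes as closest TSS, grey ones another gene, and grey lines mark start sites. In the top panel 1 blue region, 26.041 kb upstream of Apoa1 and a peak in the HKO library only, stands out at 1.56. In the bottom panel the region at the Apoe TSS lies above 0 between neighbours at -1.07 and -0.88, both peaks in the flox/flox library only.

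For the assembly of VLDL, Apob had 2 promoter regions. The one at the TSS (chr12:7977397-7978119, centred in the 5′ UTR) had 565 and 360 reads and a log2 ratio of -0.78 (-0.98 to -0.59), and the one in intron 2, 932 bp downstream (chr12:7978348-7978813), had 501 and 391 reads and a ratio of -0.49 (-0.69 to -0.30), which was above 0 when scaled to the reads in regions or to the strongest promoters. A region in intron 6, 6811 bp downstream, had 205 and 143 reads, at -0.65 (-0.97 to -0.34). The start of the gene was thus lower in the HKO library on the scale of the totals.

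The far end of Apob went the other way. Exon 26 is the gene's long exon, which holds much of its coding sequence and the base that APOBEC1 edits to make the short form of the protein. A region there (chr12:8011210-8012019, 33966 bp downstream of the TSS) had 267 reads in the flox/flox library and 502 in the HKO library, a log2 ratio of 0.77 (0.56 to 0.99). The next one in the same exon (chr12:8012130-8012507) had 156 and 231 reads, at 0.43 (0.13 to 0.73), and the last (chr12:8012740-8012993), a peak in the HKO library only, had 82 and 162 reads, at 0.84 (0.45 to 1.25). A region past the 3′ end of the gene (chr12:8017459-8018987, 40574 bp from the TSS) had 387 and 623 reads, at 0.55 (0.37 to 0.74). The last exon 26 region is listed through the HKO library only, which ties its direction to the listing. The other 3, peaks in both libraries, were above 0 under every scaling. Their intervals lay above those of the 3 regions within 10 kb of the TSS, whose median was -0.65. For comparison, regions outside promoters with an exonic centre had a median of -0.44 over 1623 of them, and 33.0% were above 0, and those whose centre lay in no gene, as at the fourth region, had a median of -0.28, and 40.1% were above 0. Farther out the Apob regions had intervals that held 0 (43486 bp, 159 and 166 reads, -0.074; 69560 bp, 75 and 105 reads, 0.34) or lay below it (60804 bp, 113 and 91 reads, -0.45, but 0.067 when scaled to the reads in regions and 0.20 when scaled to the strongest promoters).

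Mttp, whose product lipidates apolipoprotein B, had a promoter region over exon 1 (chr3:138130864-138131617, 137 bp downstream) with 471 and 320 reads and a log2 ratio of -0.69 (-0.90 to -0.49), below 0 under every scaling. Regions 2007 bp downstream (233 and 196 reads, -0.38) and 2340 bp upstream (171 and 143 reads, -0.39) sat at the median of all regions. A RefSeq start of Mttp lies 12041 bp upstream of the TSS used here and beside Trmt10a, whose promoter region had 1711 and 1660 reads, at -0.18 (-0.28 to -0.081). In the body of the gene, 2 regions lay closer to the start of another gene. The one in a last intron, a peak in both libraries, was higher in the HKO library with 126 and 178 reads, at 0.36 (0.025 to 0.70). The one in intron 15 had 18 and 51 reads, at 1.32 (0.57 to 2.23). It was a peak in the HKO library only and is listed through it, which ties its direction to the listing.

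**Figure D4:**
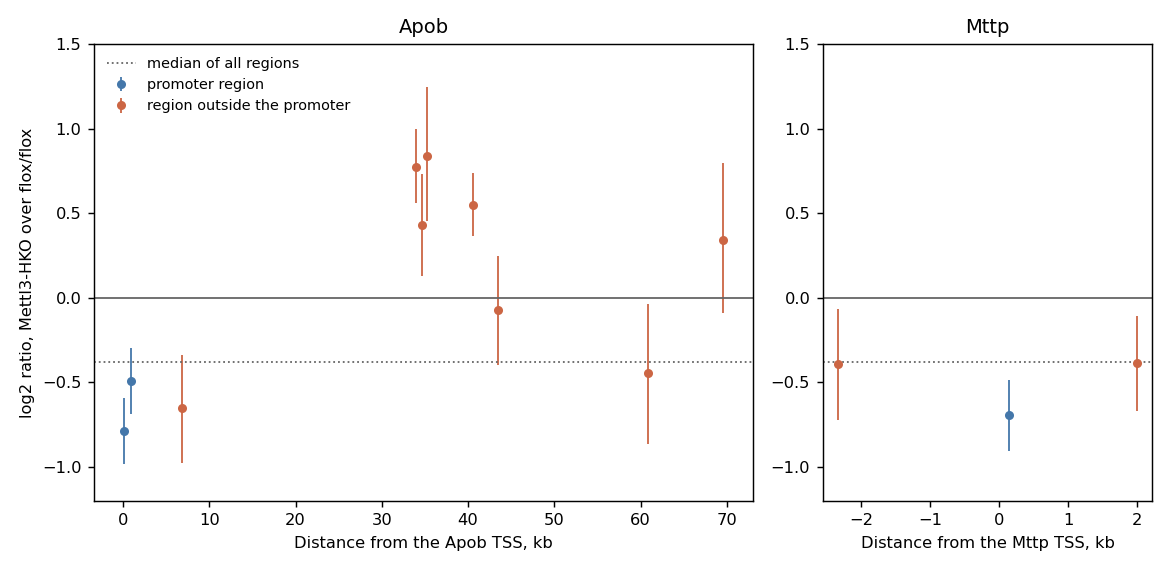
Log2 ratio (y axis, Mettl3-HKO over Mettl3 flox/flox, 95% Clopper-Pearson intervals) of the regions of Apob (left) and Mttp (right) against the distance from the TSS in kb, with promoter regions in blue and others in orange. Apob regions within 10 kb of the TSS lie at -0.78 to -0.49 and those from 33.966 to 40.574 kb at 0.43 to 0.84, while the 3 Mttp regions lie between -0.69 and -0.38. The Apob region at 35.218 kb (0.84) is a peak in the HKO library only.

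Apoh, which encodes a plasma glycoprotein that binds anionic phospholipid, had the lowest ratio of the regions at a start site. Its promoter region (chr11:108394744-108395515, 164 bp upstream) had 305 and 166 reads and a log2 ratio of -1.01 (-1.29 to -0.74), just past 2-fold, at the 15.8 percentile of promoter ratios. The region in intron 2, 1049 bp downstream and so just outside the promoter limit, had 238 and 145 reads, at -0.85 (-1.16 to -0.55). Both were below 0 under every scaling. Cep112, the next gene, had 369 and 355 promoter reads, at -0.19 (-0.41 to 0.023). Just inside the 1 kb limit lay Apoe at 824 bp, Apob at 932 bp, Apoa2 at 942 bp and Apoc1 at 979 bp, with ratios from -1.07 to -0.49, and just outside it lay Apoh at 1049 bp and Apoe at 1310 bp, at -0.85 and -0.88.

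Outside the promoters, the 32 member regions had a median log2 ratio of -0.39, beside -0.27 over all 55162 such regions, and 25 of them (78.1%) were below 0 against 59.8%. The sign of that median depends on the scaling, since it was -0.011 when centred on the median of all regions, 0.12 when scaled to the reads in regions and 0.26 when scaled to the strongest promoters. At least 2-fold lower was 1 region, against 18.8% of all regions outside promoters, and at least 2-fold higher was 1, against 15.6%. Centred, none was 2-fold lower, against 8.65%, and 3 were 2-fold higher (1 near Apoa1 and 2 in Apob exon 26), against 23.5%. The one near Apoa1 and 1 of those in Apob exon 26 were peaks in the HKO library only. The member regions were strong ones, with a median of 238.5 reads in the flox/flox library against 66 over all regions outside promoters, and 23 of 32 lay above the median ratio of the 1000 such regions nearest in signal.

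Both regions past 2-fold belonged to Apoa1 by distance and lay inside Sik3, the gene of a salt-inducible kinase that ends upstream of Apoa1. The region in Sik3 intron 14 (chr9:46202356-46202722, 26041 bp upstream of the Apoa1 TSS) had 62 reads in the flox/flox library and 203 in the HKO library and was a peak in the latter only. Its log2 ratio was 1.56 (1.16 to 2.01), the highest of the 47 member regions. The region in Sik3 intron 3 (chr9:46149292-46149962, 78953 bp upstream) had 296 and 133 reads, and its ratio was the lowest of the 47, -1.28 (-1.60 to -0.99). Both kept their sign under every scaling, but listing through the HKO library only ties the former's direction to the listing, while the latter is a peak in both. The 9 regions between the latter and the Apoa1 TSS other than the one in intron 14 had ratios from -0.65 to -0.069, but 2 of them were above 0 when centred on all regions, 4 when scaled to the reads in regions and 8 when scaled to the strongest promoters. Beyond it lay a weak region in the same intron 3, 87629 bp upstream, with 21 and 34 reads (0.53, -0.27 to 1.42), and one over Sik3 exon 3, 101543 bp upstream, with 336 and 367 reads (-0.0088, -0.23 to 0.21).

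The member region with the most reads lay over the 3′ end of Apoa1 and beyond, between it and Apoc3 (chr9:46229905-46232002, 2098 bp long). It had 2742 and 2494 reads, at the 99.9 percentile of signal among regions outside promoters, and its log2 ratio of -0.27 (-0.35 to -0.19) was 0.10 when centred. A region 13035 bp upstream of Apoa1 in Sik3 intron 21 was alike, with 846 and 790 reads, at -0.23 (-0.38 to -0.093) or 0.14 when centred, whereas the strong region 11970 bp upstream of Apoa5 had 1231 and 866 reads, at -0.64 (-0.77 to -0.52). The Sik3 promoter itself had 719 and 487 reads, at -0.70 (-0.87 to -0.53). On the other side, the region at the Zpr1 promoter that reaches to the 3′ end of Apoa5 had 1630 and 2381 reads, at 0.41 (0.32 to 0.50). Over the whole cluster the 22 member regions had a median of -0.46 (-0.085 when centred, and above 0 when scaled to the reads in regions), and 19 of the 22 were peaks in both libraries. Over all 47 member regions, 40 (85.1%) were peaks in both libraries, 4 in the flox/flox library only and 3 in the HKO library only. Over all 69549 regions the same calls made up 61.7%, 16.8% and 21.5%. Peaks in both libraries were 83.3% of all promoter regions and 56.1% of all regions outside promoters. The members were strong regions, with a median of 288 reads in the flox/flox library against 85 over all regions. These shares were not computed for regions of like signal. Regions called in 1 library are listed only through that library.

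The other genes of the pathway were read from 6 lists, by the strongest promoter region of each gene. Of 49 genes 41 had a promoter region, and 39 of these were below 0, beside 83.9% of all promoter regions. Centred on all regions 35 were, beside 66.4%. With scaling to the reads in regions 31 were, and with scaling to the strongest promoters 25, with no share over all promoter regions computed. The interval lay below 0 for 38 and above it for none, beside 10418 and 1162 of all 14387 promoter regions. In all, 11 were at least 2-fold lower and none at least 2-fold higher, beside the 16.3% and 4.07% of all promoter regions, and the median was -0.73, below 0 under every scaling. Centred, 1 of the 41, Pon1, was at least 2-fold lower, against 5.00%, and 0 were higher, against 6.90%. HDL formation and plasma remodelling had the lowest median, -1.08 over 7 of 9 genes, and 4 were at least 2-fold lower, or 1 when centred. Its lowest gene was Pon1, the gene of the HDL-bound paraoxonase, with 338 and 129 reads, at -1.52 (-1.83 to -1.23). The highest of that list was the sterol transporter gene Abcg1, at 0.43 from 22 and 33 reads, with an interval that held 0. Its region was a peak in the HKO library only. Lipase regulators had a median of -0.99 over 4 of 5 genes, and the highest was Angptl8 (592 and 354 reads, -0.88, -1.07 to -0.69).

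Transcription factors of these genes had a promoter region for 9 of 10, each below 0 on the scale of the totals, with a median of -0.77. The lowest was the forkhead factor gene Foxa2 (1650 and 792 reads, -1.19, -1.32 to -1.07) and the highest Foxo1 (959 and 710 reads, -0.57, -0.71 to -0.43). With scaling to the strongest promoters Foxo1, Nr1h3 and Nr1h4 were above 0. Lipoprotein receptors had a median of -0.71 over 5 of 7 genes, each below 0 on the scale of the totals. Other apolipoproteins had a median of -0.69 over 5 of 7 genes, from Apof (579 and 311 reads, -1.03, -1.24 to -0.83), which codes for an inhibitor of lipid transfer, to Apon (613 and 554 reads, -0.28, -0.45 to -0.11), which was above 0 when centred. The genes of VLDL assembly and secretion had the highest median, -0.49 over 11 of 11 genes, which was 0.025 when scaled to the reads in regions and 0.16 when scaled to the strongest promoters. They ran from Tmem41b (1754 and 843 reads, -1.19, -1.31 to -1.07), a lipid scramblase gene, to the editing enzyme gene Apobec1 (487 and 593 reads, 0.15, -0.027 to 0.32).

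**Figure D5:**
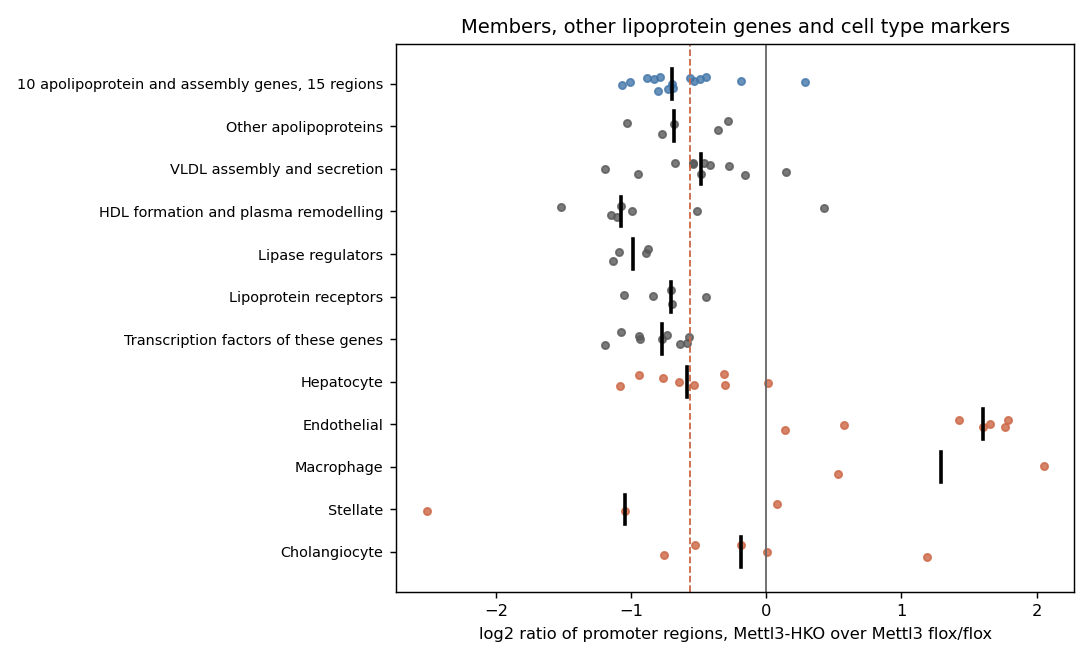
Log2 ratio (x axis, Mettl3-HKO over Mettl3 flox/flox, library totals) of the 15 member promoter regions (blue), of the strongest promoter region of each gene in 6 pathway lists (grey) and in 5 cell type marker lists (orange), with black bars at the medians and a dashed line at the median of all promoter regions (-0.56). The members (median -0.70) lie among the pathway lists, whose medians run from -1.08 (HDL formation) to -0.49 (VLDL assembly, above 0 when scaled to the reads in regions), and the endothelial markers lie at 1.60, with 5 of their 7 regions peaks in the HKO library only.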

How the data were processed

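ATAC-seq was analysed for 1 library of pooled livers from 4 Mettl3 flox/flox mice and 1 from 4 Mettl3-HKO mice, grouped by the sample labels. The authors trimmed adaptors with skewer, aligned reads with BWA to GRCm38, kept properly paired non-mitochondrial reads passing a mapping quality of 13, and ran MACS2 on each library, keeping duplicates, to call peaks. The counting of reads on shared regions and any shift of read ends for Tn5 are not given in the sources used here. The authors deposited raw counts per region and library, RPM values that add 1 read to each count, and the distance from the region centre to the closest TSS. The RPM values served to recover the library totals, known only as closely as the deposited rounding of the RPM per read allows. Their fold enrichment and log2 fold change columns were not used.

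Of 74821 rows, 5272 repeated a region and were left out, and starts were converted to count from 1. The log2 ratio was computed from counts with 1 read added. Intervals for ratios are Clopper-Pearson intervals at 95% of the share of counts, those for levels exact Poisson intervals. Duplicate reads are not independent molecules, so both cover counting error only. The median region had 85 and 81 counts. Regions were assigned by the symbol of the closest TSS, and none was added by identifier. The genes named are the 10 members, their neighbours in RefSeq, the highest and lowest of each pathway list, and the markers. Some of the list genes are not reported here. Members, lists and regions singled out were chosen with earlier results of these data known, and support nothing by their choice. No test was made, with 1 library per group. Values were computed in Python 3.11.15 with pandas 2.3.3, intervals with scipy 1.17.1 over numpy 2.4.6, and plots with matplotlib 3.10.9. The scripts were tested on simulated counts. Alternatives covered the scaling, the reads added, the promoter window, the signal and peak filters, the fold limit and the sum per gene.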

Additional observations from a re-analysis of the deposited data

How the results depend on the processing

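On the library totals the member medians were -0.70 (promoters) and -0.39 (outside), with 2 promoter regions at least 2-fold lower, 0 higher, and 1 region outside promoters past 2-fold each way. Centring on the median of all regions gave medians of -0.32 and -0.011, no promoter or other region 2-fold lower, and 3 regions outside promoters 2-fold higher. Scaling to the reads in regions gave -0.18 and 0.12, with 0 lower in either set and 5 higher outside. Taking the strongest 10% of promoter regions as the centre gave -0.049 and 0.26, with 0 lower in either set and 6 higher outside. These scalings changed the sign of 9, 16 and 23 of the 47 member ratios. The number of promoter regions 2-fold lower fell to 1 with 10 reads added, with a window of 500 bp, with peaks required in both libraries, or with promoter counts summed per gene, since Apoh or the downstream Apoe region then dropped out. The 500 bp window gave 2 lower regions outside promoters, and requiring peaks in both libraries left 0 higher there. A 1.5-fold limit gave 9 promoter regions lower, and 8 lower and 3 higher outside. No promoter region was higher by the 2-fold limit in any of these. Shares over all regions were computed only for the 2-fold limit, on the library totals and centred on the median of all regions. The other counts have no background beside them and are not read as results about the members. No paired analysis was possible because each group is 1 pooled library.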
